A study of Mus musculus with 17 samples.

Results

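OX40, GITR, 4-1BB, CD27 and CD30 are receptors of the tumour necrosis factor (TNF) receptor family through which T cells receive costimulatory signals. They are described here with the ligands of all but GITR, whose ligand gene Tnfsf18 was not analysed here. The 9 genes were chosen by symbol, with earlier results of these data known, and all 9 were measured among the 17097 genes of the array. The receptor genes are Tnfrsf4 (OX40), Tnfrsf18 (GITR), Tnfrsf9 (4-1BB), Cd27 and Tnfrsf8 (CD30). The ligand genes are Tnfsf9 (4-1BB ligand), Tnfsf8 (CD30 ligand), Tnfsf4 (OX40 ligand) and Cd70 (CD27 ligand). A gene with several probe sets was represented by the one with the highest mean over all 17 arrays, which applied to Tnfrsf9 alone among the members.

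The cells were sorted from male NOD mice, an inbred strain whose lacrimal glands become infiltrated by lymphocytes and which serves as a model of Sjögren's syndrome. The 5 groups were epithelial cells (CD45- CD326+, 3 arrays) and CD4 T cells (CD3+ CD4+, 4 arrays) of the lacrimal gland, CD4 T cells of the spleen (3 arrays), B cells (B220+ CD3-) of the lacrimal gland (4 arrays) and B cells of the spleen (3 arrays). Gland donors were 16 weeks old, whereas spleen donors were 16 weeks old by the sample labels and 4 weeks old by the design text, which names the spleen cells as steady-state controls, so that tissue and age may differ together. No treatment or engineered allele is stated for any group. Gland tissue was digested with enzymes, a step the labels do not give for spleens. Whether replicates were separate animals is not stated in the labels, so the spread behind each p-value is that of these samples and may be technical.

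These receptors share a mode of action: a ligand of the TNF family on a neighbouring cell clusters the receptor, TRAF adaptor proteins bind its tail, and the classical and alternative NF-kB pathways are switched on. OX40 and 4-1BB are known as receptors that conventional T cells raise after antigen recognition, GITR and OX40 are abundant on mouse regulatory T cells, and CD27 is already present on naive T cells. The ligands are best known from antigen-presenting cells, although activated T cells can make several of them.

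The sequences upstream of the annotated starts are shown for 4 receptor genes of chromosome 4, because Tnfrsf4 and Tnfrsf18 are neighbouring coding genes, Tnfrsf9 has more than 1 annotated start, and Tnfrsf8 stayed below the median of all values in every array. They were taken from RefSeq (GRCm38.p6), in which 6 of the 9 genes had a window, and run 5′ to 3′ on the strand of the gene, which is plus for all but Tnfrsf8. The Tnfrsf4 window is shown up to the outermost annotated start of the gene. Capitals mark matches on either strand to the AP-1 motif TGANTCA or to the NF-kB consensus.
Tnfrsf4, chr4:156013445-156013594: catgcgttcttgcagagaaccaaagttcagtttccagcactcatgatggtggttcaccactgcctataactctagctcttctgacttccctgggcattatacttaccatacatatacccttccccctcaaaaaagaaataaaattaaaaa
Tnfrsf18, chr4:156026072-156026321: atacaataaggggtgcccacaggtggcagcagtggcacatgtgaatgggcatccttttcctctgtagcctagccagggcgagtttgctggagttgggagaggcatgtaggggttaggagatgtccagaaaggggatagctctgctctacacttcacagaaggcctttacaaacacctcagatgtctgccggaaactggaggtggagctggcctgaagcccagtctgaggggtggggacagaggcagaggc
Tnfrsf9 outer start, chr4:150919905-150920154: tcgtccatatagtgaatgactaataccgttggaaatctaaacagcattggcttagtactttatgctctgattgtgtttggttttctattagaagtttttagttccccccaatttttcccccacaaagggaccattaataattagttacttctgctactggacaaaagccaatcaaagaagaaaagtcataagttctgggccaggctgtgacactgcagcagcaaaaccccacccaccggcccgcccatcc
Tnfrsf9 inner start, chr4:150927749-150927998: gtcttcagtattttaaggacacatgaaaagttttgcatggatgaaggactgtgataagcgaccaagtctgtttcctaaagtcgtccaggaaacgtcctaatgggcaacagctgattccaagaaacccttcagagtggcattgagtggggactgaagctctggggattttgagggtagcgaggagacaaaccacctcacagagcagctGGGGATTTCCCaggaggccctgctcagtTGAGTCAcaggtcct
Tnfrsf8, chr4:145315165-145315414: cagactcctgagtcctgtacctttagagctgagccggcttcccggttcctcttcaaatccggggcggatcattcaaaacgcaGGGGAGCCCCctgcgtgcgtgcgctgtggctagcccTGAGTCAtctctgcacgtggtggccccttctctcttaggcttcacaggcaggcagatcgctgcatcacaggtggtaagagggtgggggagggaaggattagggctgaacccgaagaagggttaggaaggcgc

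The window at the inner start of Tnfrsf9, which lies inside the annotated gene, held an AP-1 match from base -15 to -9 and overlapping NF-kB matches from base -43 to -34 and from -42 to -33, counted from the start. The Tnfrsf8 window held an NF-kB match from base -168 to -159 and an AP-1 match from -132 to -126. The windows of Tnfrsf4, Tnfrsf18, the outer start of Tnfrsf9, Cd27 and Tnfsf8 held neither motif. Among 32851 windows of 250 bases, 6.75% held the AP-1 motif, 3.899% the NF-kB consensus and 55.6% the NFAT core GGAAA, which overlaps the NF-kB matches of Tnfrsf9. A match describes the letters of the window only. Tnfsf9 and Cd70 are also neighbours, on chromosome 17, Tnfsf4 lies on chromosome 1 and Cd27 on chromosome 6.

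The sorts were checked against lineage genes, all values being log2 expression. The mean of 5 T cell genes was 10.59 to 10.71 in gland and 10.37 to 10.46 in spleen CD4 T cells, against 4.58 to 5.16 in gland and 4.11 to 4.84 in spleen B cells. The mean of 5 B cell genes was 4.40 to 4.94 in gland and 4.45 to 4.73 in spleen CD4 T cells, against 9.77 to 9.83 in gland and 9.89 to 10.07 in spleen B cells. Epithelial replicate 1 stood apart although the gate was CD45-, with Ptprc, the gene of CD45, at 9.62 against 2.42 and 2.36 in the other two epithelial arrays, and with a T cell mean of 6.71 against 3.62 and 3.58. Values without this array are given below for some members and comparisons, and adjusted p values of others moved as well.

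The comparison of gland with spleen CD4 T cells asked how T cells in the inflamed tissue differ from steady-state ones. Of the 9 members, 4 rose and none fell: the receptors Tnfrsf4 and Tnfrsf9 and the ligands Tnfsf9 and Tnfsf8. A gene was called changed at a Benjamini-Hochberg adjusted p under 0.05 in limma, over all 17097 genes, with a difference of at least 2-fold. By that rule 5.35% of all genes were higher and 1.62% lower in gland CD4 T cells. The median log2 difference of the members was 0.97, against -0.03 for all genes. In bulk samples, a larger share of cells with a transcript and more transcript per cell cannot be told apart.

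**Figure D1:**
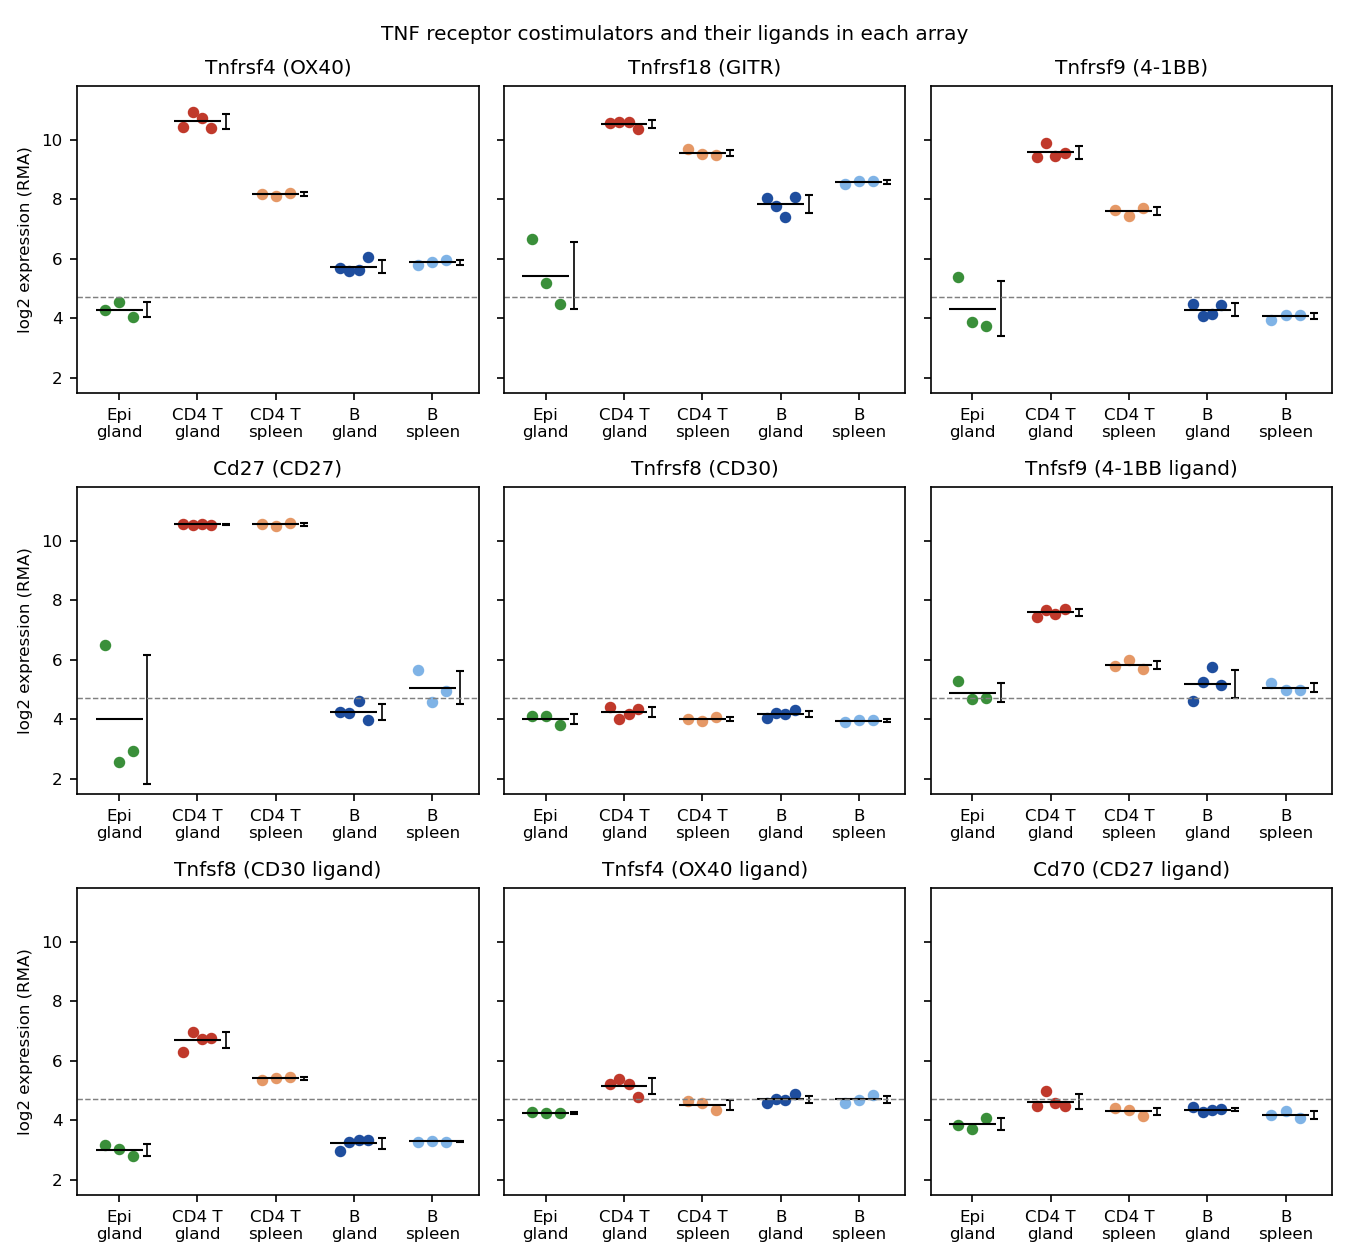
Log2 expression (RMA) of the 9 genes in each of the 17 arrays, 1 point per array, with epithelial cells, CD4 T cells of gland and spleen, and B cells of gland and spleen along the horizontal axis. Horizontal bars are group means, vertical bars are SDs and the dashed line is the median of all values, 4.71. Tnfrsf4, Tnfrsf9, Tnfsf9 and Tnfsf8 stand highest in gland CD4 T cells, while Cd27 is level between gland and spleen CD4 T cells.

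Tnfrsf4, the gene of OX40, had the largest difference among the members by the kept probe sets. Its log2 levels were 10.44, 10.92, 10.71 and 10.40 in gland CD4 T cells, against 8.19, 8.12 and 8.22 in spleen CD4 T cells. All gland arrays lay above all spleen arrays, by a gap far wider than the spread within either group. The means were 10.62 ± 0.24 (SD, n = 4) in the gland and 8.18 ± 0.05 (SD, n = 3) in the spleen. OX40 transcript was thus 5.43-fold higher in gland CD4 T cells (log2 2.44, SE 0.14, limma adjusted p = 6.02e-09).

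Tnfrsf9, the gene of 4-1BB, a receptor of recently activated T cells, moved the same way. It read 9.43, 9.89, 9.46 and 9.54 in gland CD4 T cells, against 7.65, 7.45 and 7.71 in spleen CD4 T cells. The groups did not overlap, and the difference was 3.93-fold (log2 1.97, SE 0.28, limma adjusted p = 8.40e-05, and 2.16e-08 without epithelial replicate 1). The gene had 3 probe sets, and they did not agree in size. The values above are from the brightest, which was kept. The second had means of 7.79 ± 0.17 (SD, n = 4) in T cells of the gland and 4.62 ± 0.42 (SD, n = 3) in those of the spleen, a log2 difference of 3.17 (SE 0.16, limma adjusted p = 9.68e-10 over all probe sets). The third stayed between 2.05 and 2.15 in every group mean, with a log2 difference of 0.06 (limma adjusted p = 0.809). A rise was thus measured by 2 of the 3 probe sets, and the other lay far below the median of all values throughout.

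**Figure D2:**
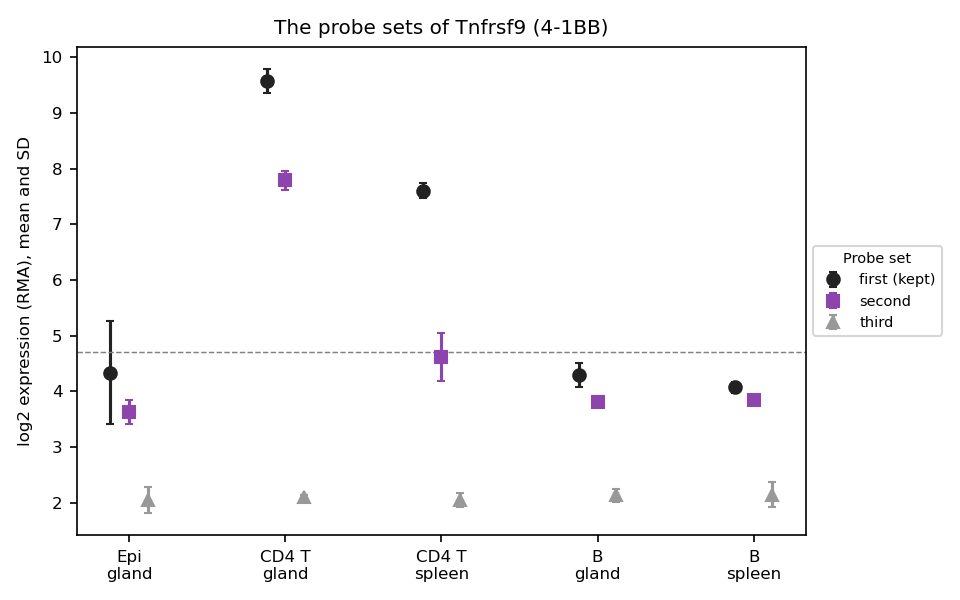
Mean log2 expression (RMA) of the 3 probe sets of Tnfrsf9 in the 5 groups, with SDs as bars and the median of all values dashed. Ordered by mean level, the first (kept) and second stand higher in CD4 T cells of the gland than of the spleen, and the third stays between 2.05 and 2.15.

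Tnfrsf18, the gene of GITR, was high in both T cell groups and differed by just under the 2-fold limit. Its log2 levels were 10.55, 10.59, 10.60 and 10.35 in gland CD4 T cells, against 9.68, 9.52 and 9.48 in spleen CD4 T cells. The groups did not overlap, and the difference was 1.95-fold (log2 0.97, SE 0.33, limma adjusted p = 0.0472), so that it passed on p but was not called. The standard error was set in part by the epithelial arrays, where Tnfrsf18 read 6.65, 5.20 and 4.47. Without epithelial replicate 1 the same difference had an SE of 0.17 and a limma adjusted p of 0.00045.

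Cd27, by contrast, was high and level. It read 10.56, 10.53, 10.57 and 10.53 in gland CD4 T cells, against 10.56, 10.48 and 10.60 in spleen CD4 T cells. The T cell groups overlapped, with a log2 difference of 0.00342 and a 95% interval from -1.34 to 1.35. That interval also reflects the epithelial arrays (6.50, 2.57 and 2.94), and the SE was 0.63 over all groups, 0.20 without epithelial replicate 1 and 0.068 with CD4 T arrays alone. Tnfrsf8, the gene of CD30, had no array above 4.71, the median of all values, and its group means spanned 3.97 to 4.25. It read 4.42, 4.02, 4.20 and 4.37 in gland CD4 T cells, against 4.03, 3.95 and 4.07 in spleen CD4 T cells, which overlapped (limma adjusted p = 0.109).

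Among the ligands, Tnfsf9, the partner of 4-1BB, differed most between the T cell groups. It read 7.44, 7.67, 7.56 and 7.71 in gland CD4 T cells, against 5.79, 5.98 and 5.70 in spleen CD4 T cells. All gland arrays were higher, by 3.41-fold on average (log2 1.77, SE 0.20, limma adjusted p = 7.97e-06), so that receptor and ligand of this pair both rose in the same sorted population. Tnfsf8, the ligand of CD30, read 6.31, 6.97, 6.74 and 6.76 in gland CD4 T cells, against 5.35, 5.44 and 5.45 in spleen CD4 T cells. It rose 2.43-fold (log2 1.28, SE 0.14, limma adjusted p = 3.32e-06), while its receptor gene Tnfrsf8 was not called in any comparison.

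The other two ligands stayed close to the median of all values. Tnfsf4, the ligand of OX40, read 5.21, 5.40, 5.21 and 4.77 in gland CD4 T cells, against 4.65, 4.58 and 4.34 in spleen CD4 T cells. The groups did not overlap, but the difference of 1.54-fold was under the limit (log2 0.62, SE 0.13, limma adjusted p = 0.00153). Cd70, the ligand of CD27, read 4.47, 4.998, 4.57 and 4.49 in gland CD4 T cells, against 4.40, 4.35 and 4.16 in spleen CD4 T cells, with 1 of the 17 arrays above the median of all values. Its log2 difference was 0.33 (95% interval 0.06 to 0.59, limma adjusted p = 0.0706). No detection calls were used, so folds of genes this low are ratios of deposited values.

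Other gene groups moved with this comparison. The mean of 4 regulatory T cell genes was 10.15 to 10.28 in gland CD4 T cells, against 8.55 to 8.74 in spleen CD4 T cells, and Foxp3, which defines these cells, read 9.72, 9.86, 9.68 and 9.45 in gland CD4 T cells, against 8.45, 8.22 and 8.39 in spleen CD4 T cells. The mean of 10 immediate early genes, which respond to activation and to cell handling, was 9.64 to 9.74 in gland and 6.36 to 6.63 in spleen CD4 T cells. It was 9.84 to 10.06 in gland and 6.17 to 6.46 in spleen B cells. Epithelial genes averaged 7.46 to 7.67 in gland and 3.89 to 4.43 in spleen CD4 T cells. The mean of 4 dendritic cell genes was 4.05 to 4.23 in gland and 4.02 to 4.31 in spleen CD4 T cells, and that of 4 NK cell genes 3.25 to 3.55 in gland and 2.89 to 3.07 in spleen CD4 T cells, although Eomes of that list was called higher in the gland. The mean of 4 plasma cell genes was 7.32 to 7.71 in gland and 5.48 to 6.07 in spleen CD4 T cells, and 3 of them were called higher, namely Prdm1, Xbp1 and Jchain, the last averaging 9.09 in CD4 T cells of the gland, against 5.57 in those of the spleen. The mean of 6 myeloid genes was 5.16 to 5.25 in gland and 3.83 to 4.64 in spleen CD4 T cells. The part of these groups of genes in the members' differences was not tested.

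The same tissue comparison in B cells called none of the 9 members in limma, against 2.58% of all genes higher and 1.6% lower, and 2 members had an unadjusted p under 0.05 (Tnfrsf18 and Tnfrsf8). The members' median log2 difference was 0.00206, against 0.00119 for all genes. Tnfrsf4 read 5.68, 5.60, 5.62 and 6.07 in gland B cells, against 5.79, 5.91 and 5.95 in spleen B cells, which overlapped (log2 difference -0.14, 95% interval -0.45 to 0.16). Tnfrsf9 read 4.49, 4.08, 4.15 and 4.45 in gland B cells, against 3.96, 4.13 and 4.13 in spleen B cells, all below the median of all values. Tnfsf9 and Tnfsf8 also overlapped between the B cell groups, with log2 differences of 0.13 and -0.06. Epithelial genes averaged 7.30 to 7.57 in gland and 4.13 to 4.25 in spleen B cells. Among marker genes of other cells, Ccr9 (7.66 against 5.53), Flt3 (5.30 against 3.78), Cd8a (6.57 against 5.10) and Ctla4 (6.19 against 4.57) were called higher in gland B cells. The other measured genes of their lists were not called. Of those, Il2ra (4.48 against 5.24), Foxp3 (5.24 against 5.45) and Zbtb46 (5.49 against 5.84) averaged lower in gland B cells. Ikzf2 (3.80 against 3.06), Cd8b1 (4.17 against 3.84), Tcf4 (9.23 against 9.12), Itgax (4.63 against 4.53) and Xcr1 (2.47 against 2.41) averaged higher. Tnfrsf17 (4.19 against 5.40) was called lower. The part of these marker genes in the B cell results was not tested.

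Tnfrsf18 and Cd27 had the most negative differences between gland and spleen B cells, and neither was called. Tnfrsf18 read 8.05, 7.77, 7.42 and 8.07 in gland B cells, against 8.51, 8.62 and 8.62 in spleen B cells. No gland array reached a spleen array (log2 difference -0.76, SE 0.33, limma adjusted p = 0.141, and 0.00487 without epithelial replicate 1). Cd27 read 4.25, 4.22, 4.62 and 3.97 in gland B cells, against 5.67, 4.58 and 4.95 in spleen B cells, which overlapped (log2 difference -0.80, SE 0.63, limma adjusted p = 0.450, and 0.0106 without epithelial replicate 1). Tnfsf4 averaged 4.72 ± 0.12 (SD, n = 4) in gland and 4.71 ± 0.12 (SD, n = 3) in spleen B cells, and Cd70 averaged 4.37 ± 0.06 (SD, n = 4) in gland and 4.19 ± 0.13 (SD, n = 3) in spleen B cells.

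**Figure D3:**
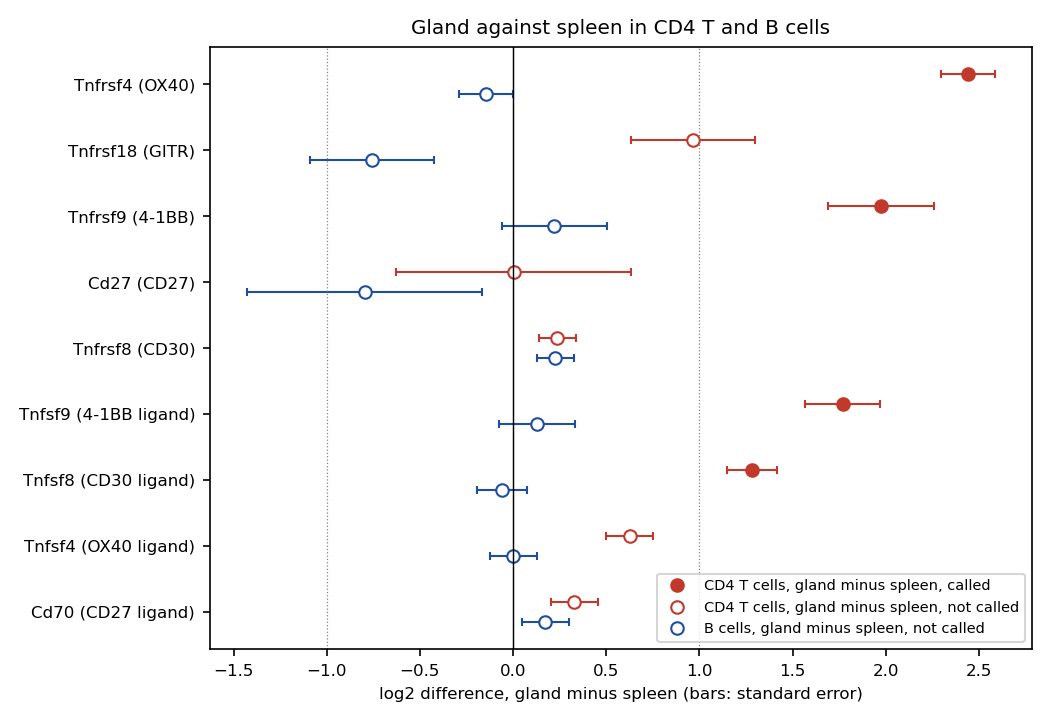
Log2 difference of each gene between gland and spleen, in CD4 T cells (red) and in B cells (blue), with standard errors as bars, filled points for called differences and dotted lines at the 2-fold limit. Tnfrsf4, Tnfrsf9, Tnfsf9 and Tnfsf8 are called in CD4 T cells, no member is called in B cells, and Tnfrsf18 lies at 0.97 in CD4 T cells and -0.76 in B cells.

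Whether the tissue difference itself differed between the cell types was tested as an interaction, the gland minus spleen difference of CD4 T cells minus that of B cells. It was called higher for 5 of the 9 members, against 3.87% of all genes higher and 1.22% lower, with a median of 1.34 for the members and -0.02 for all genes. The log2 interaction was 2.58 for Tnfrsf4 (SE 0.20, limma adjusted p = 4.92e-07) and 1.75 for Tnfrsf9 (SE 0.40, limma adjusted p = 0.00931, and 9.31e-06 without epithelial replicate 1). It was 1.64 for Tnfsf9 (SE 0.29, limma adjusted p = 0.00117) and 1.34 for Tnfsf8 (SE 0.19, limma adjusted p = 0.000185). In each of these 4 genes the B cell arrays of both tissues overlapped.

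The interaction of Tnfrsf18 was of another shape, with gland above spleen in T cells and gland below spleen in B cells. It was 1.72 on the log2 scale (SE 0.47, limma adjusted p = 0.0280). The call was lost when any 1 of 8 arrays was left out (replicate 2 or 3 of gland B cells, any spleen B cell array, replicate 3 of gland CD4 T cells, or replicate 2 or 3 of spleen CD4 T cells), with adjusted p between 0.05004 and 0.0640 and the log2 value between 1.59 and 1.76. Without epithelial replicate 1 the adjusted p was 0.000140. Tnfsf4 had an interaction of 0.62 that passed on p (limma adjusted p = 0.0344) but not on size, and Cd27, Cd70 and Tnfrsf8 passed neither limit. For Cd27 the limma adjusted p was 0.685, and 0.0832 without epithelial replicate 1.

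CD4 T cells were then set against B cells within each tissue, which shares arrays with the comparisons above. In the gland, 6 of the 9 members were higher in CD4 T cells and none lower, against 5.97% of all genes higher and 3.73% lower, with medians of 2.70 for the members and -0.04 for all genes. In log2 terms Cd27 was 6.28 higher (limma adjusted p = 3.23e-07), Tnfrsf9 5.28 (1.50e-10) and Tnfrsf4 4.88 (29.4-fold, 1.31e-13). For Cd27, Tnfrsf9 and Tnfsf8 the B cell means (4.27, 4.29 and 3.24) lay below the median of all values, so their differences are those of deposited values and no fold is given. The size for Tnfrsf9 depended on the probe set: the second gave 3.98, the third -0.02 and the mean of all 3 gave 3.08. Tnfsf8 was 3.46 higher (limma adjusted p = 3.10e-12), Tnfrsf18 2.70 (3.59e-06) and Tnfsf9 2.39 (3.88e-08). The ligands Tnfsf9 and Tnfsf8 were thus higher in gland T cells than in gland B cells, which are among the antigen-presenting cells.

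In the spleen, 4 of the 9 were higher in CD4 T cells than in B cells and none lower, against 4.52% of all genes higher and 4.63% lower, with medians of 0.97 for the members and -0.00239 for all genes. Cd27 was 5.48 higher on the log2 scale (limma adjusted p = 1.03e-05), Tnfrsf9 3.53 (1.60e-07), Tnfrsf4 2.30 (8.11e-09) and Tnfsf8 2.11 (9.63e-09). Tnfrsf18 was 1.97-fold higher in spleen CD4 T cells without overlap (limma adjusted p = 0.0638, and 0.000608 without epithelial replicate 1). Tnfsf9 was 1.69-fold higher (limma adjusted p = 0.0175), under the limit of size. For Tnfrsf9 the second probe set gave 0.78, under the limit of size, the third -0.10 and the mean of all 3 gave 1.41 (limma adjusted p = 2.53e-07).

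Epithelial cells were the low end for most members. Against gland CD4 T cells, 6 of the 9 were lower and none higher (10.6% of all genes lower, 14.8% higher), with medians of -3.69 for the members and -0.08 for all genes. Tnfrsf4 read 4.28, 4.56 and 4.05 in epithelial cells and was 6.32 lower than in gland CD4 T cells in log2 terms (difference -6.32, limma adjusted p = 1.01e-14). Cd27 differed by -6.54, Tnfrsf9 by -5.24, Tnfrsf18 by -5.08, Tnfsf8 by -3.69 and Tnfsf9 by -2.69, with limma adjusted p of 1.78e-07 or less. Without epithelial replicate 1 these were -7.79 for Cd27, -5.78 for Tnfrsf9, -5.69 for Tnfrsf18, -3.77 for Tnfsf8 and -2.88 for Tnfsf9, and Tnfrsf4 was at -6.31. Averaging its probe sets gave -3.15 for Tnfrsf9. Tnfsf4 at -0.89 and Cd70 at -0.75 were under the limit of size.

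Against gland B cells, 2 members were lower in epithelial cells, Tnfrsf18 (log2 difference -2.39, limma adjusted p = 1.14e-05, and -2.99 without epithelial replicate 1) and Tnfrsf4 (-1.44, limma adjusted p = 2.66e-07). Of all genes 10.4% were lower and 16.2% higher, and the medians were -0.30 for the members and -0.11 for all genes. Epithelial replicate 1, the array with Ptprc at 9.62, was the highest epithelial array for Cd27, Tnfrsf18, Tnfrsf9, Tnfsf9, Tnfsf8 and Tnfsf4. Without it, 3 members were lower, Cd27 being added at -1.51 (limma adjusted p = 3.02e-05), against -0.26 with it. The difference of Tnfrsf9 turned to -0.49 (limma adjusted p = 0.00825), against 0.04 with it.

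Ordered by level within each gene, gland CD4 T cells came first for all 9 members by group mean. How often all genes show such an order or such gaps was not counted. The lead was slight for Cd27 over spleen CD4 T cells (0.00342) and for Tnfrsf8 over gland B cells (0.059). With each array centred on its median these turned to -0.15 and -0.058. Neighbours in the order did not overlap anywhere for Tnfrsf18, which ran gland CD4 T, spleen CD4 T, spleen B, gland B and epithelial cells. For Tnfrsf4 the order was the same and only the B cell groups overlapped. For Tnfrsf9, epithelial, gland B and spleen B cells overlapped with their neighbours below both T cell groups, and for Tnfsf8 both B cell groups and epithelial cells did. For Cd27 the T cell groups overlapped with each other, as did spleen B with gland B and gland B with epithelial cells. For Tnfsf9 spleen CD4 T, gland B, spleen B and epithelial cells each overlapped with the next. For Tnfsf4 the only neighbours that did not overlap were spleen CD4 T and epithelial cells, for Cd70 they were gland CD4 T and gland B cells, and for Tnfrsf8 all neighbours overlapped.

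Related costimulatory genes and genes of the pathway below the receptors were counted from 2 further lists. The first holds TNF family genes and partners of such receptors that are not family members themselves (Btla, Cd160, Lgals9 and Siva1). Of its 7 measured genes, none rose and 1 fell in gland against spleen CD4 T cells, against 5.35% of all genes higher and 1.62% lower. That gene was Cd160, a receptor that binds the herpesvirus entry mediator, with 6.18, 5.75, 5.81 and 5.57 in gland CD4 T cells, against 6.93, 6.78 and 6.91 in spleen CD4 T cells (log2 difference -1.05, SE 0.33, limma adjusted p = 0.0300). Its call was lost when replicate 2, 3 or 4 of gland CD4 T cells or any spleen CD4 T array was left out (adjusted p between 0.0589 and 0.0866), and with the mean of its probe sets (-0.34). Tnfsf14 (LIGHT), the next coding gene after Cd70, had a log2 difference of 0.99 (limma adjusted p = 0.0138), and Tnfrsf25 (death receptor 3) one of -0.71 (limma adjusted p = 0.0208), both under the limit of size. Tnfsf14 was called without replicate 2 of gland CD4 T cells (1.18), without replicate 1 of spleen CD4 T cells (1.002) and without replicate 3 of them (1.004). The interaction was called for Tnfrsf25 at -1.17 (SE 0.30, limma adjusted p = 0.0179), though not without replicate 1 of spleen CD4 T cells (-0.97, adjusted p = 0.0556). Of these 7 genes none was called in B cells in limma, against 2.58% of all genes higher and 1.6% lower, and 2 had an unadjusted p under 0.05.

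Of 13 measured TRAF adaptors, their partners and NF-kB pathway genes, 2 rose in gland against spleen CD4 T cells and none fell. Of all genes 5.35% were higher and 1.62% lower. The median log2 difference of the 13 was 0.64, against -0.03 for all genes. Both belong to the alternative NF-kB pathway. Nfkb2, which encodes its p100 precursor, read 7.42, 8.22, 7.80 and 7.58 in gland CD4 T cells, against 6.66, 6.42 and 6.24 in spleen CD4 T cells (2.49-fold, SE 0.17 on the log2 scale, limma adjusted p = 2.50e-05). Relb, the partner of its product, read 6.61, 7.35, 6.77 and 6.65 in gland CD4 T cells, against 5.71, 5.87 and 5.73 in spleen CD4 T cells (2.10-fold, SE 0.17 on the log2 scale, limma adjusted p = 0.00017). Without replicate 2 of gland CD4 T cells, Relb was at 0.90 and not called. It was also under the limit at 0.92 after centring each array on its median, at 0.94 after quantile normalization and at 0.99 with array weights. Traf1, an adaptor that binds several of these receptors, had a log2 difference of 1.17 (SE 0.43, limma adjusted p = 0.0621) and was not called. It was called without epithelial replicate 1 (adjusted p = 0.000913) and with the mean of its probe sets (log2 1.51, adjusted p = 0.00527). The same held with a filter on low values, with array weights and with CD4 T arrays alone.

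In B cells none of the 13 was called in limma, against 2.58% of all genes higher and 1.6% lower. Of the 13, 4 had an unadjusted p under 0.05 and the median was 0.23. Birc2 and Birc3 also passed on limma adjusted p, but not on size. With the mean of its probe sets, Traf1 was called higher in gland than in spleen B cells (log2 1.20, limma adjusted p = 0.0293). The interaction was called for Nfkb2 (log2 1.31, SE 0.24, limma adjusted p = 0.00161). In the spleen, Nfkb2, Relb and Birc3 were lower in CD4 T cells than in B cells, by log2 differences of -1.77, -1.07 and -1.38. In the gland, Birc3 was lower at -1.09, Traf1 was higher at 1.45, and Nfkb2 stood at -0.46, under the limit. Replicate 2 of gland CD4 T cells was the highest gland T cell array for 5 of the 9 members and 9 of these 13 genes, and for 35.3% of all genes.

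**Figure D4:**
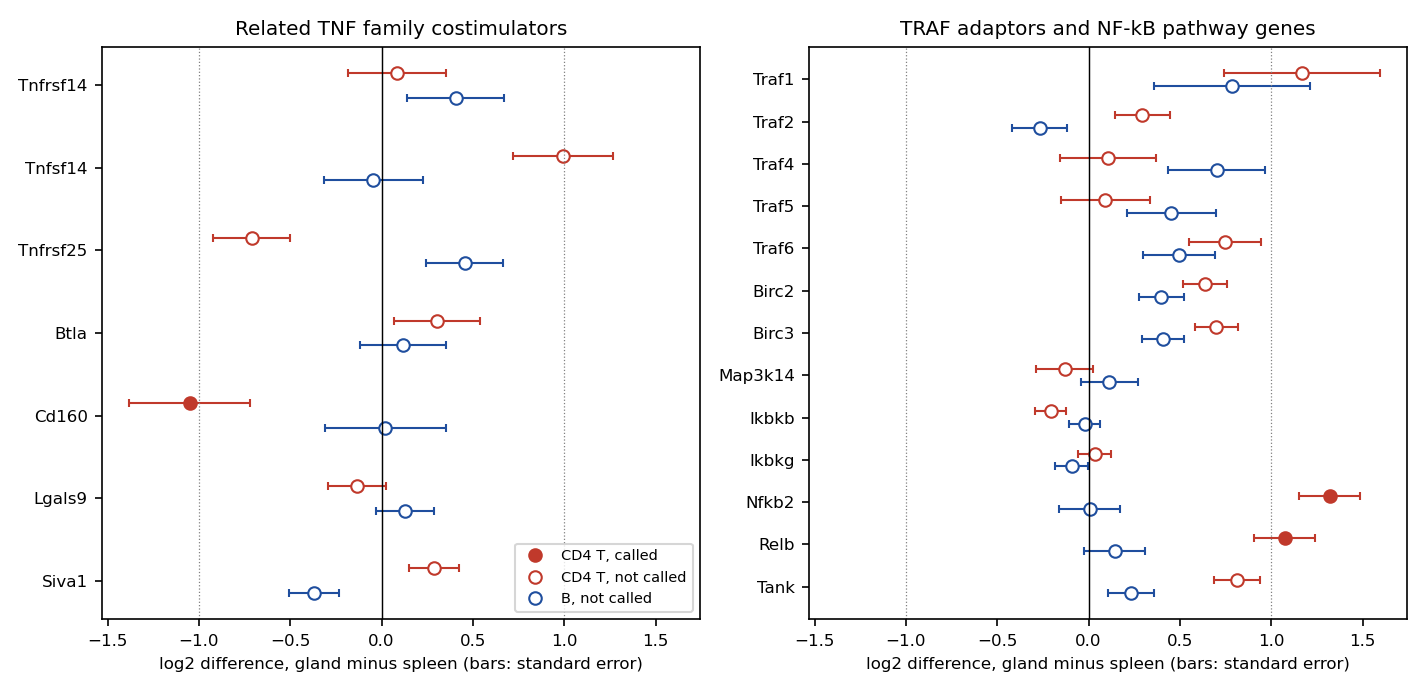
Log2 difference between gland and spleen of the 7 related costimulators (left) and the 13 TRAF and NF-kB pathway genes (right), in CD4 T cells (red) and B cells (blue), with standard errors as bars and filled points for called differences. Nfkb2 and Relb are called higher and Cd160 lower in CD4 T cells, and no gene is called in B cells.

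The genes with the most similar profile were found for the 6 members whose group means span at least 2 log2 units, by the root mean square difference of the 5 centred group means. For Tnfrsf4 these were Ptger2 (0.35), Slc9b2 (0.43) and Foxp3 (0.52), and for Tnfrsf9 they were Fasl (0.31), Pdcd1 (0.32) and Ptger2 (0.35). For Tnfrsf18 they were Gfi1 (0.34), Glipr1 (0.37) and Itgal (0.47), and for Cd27 they were Cd5 (0.45), Gstp3 (0.46) and Cd4 (0.48). For Tnfsf8 they were Prg4 (0.19), Cxcr6 (0.19) and Tnfsf14 (0.25), and for Tnfsf9 they were 6330403K07Rik (0.092), Atcay (0.13) and Lypd1 (0.13). The profiles rest on 5 group means that share their arrays, and they describe likeness of level alone. The epithelial means include replicate 1, and some had a wide spread (SD 2.98 for Fasl and 2.17 for Cd27, n = 3). The ranking was not repeated without that array.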

How the data were processed

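The deposited values, log2 expression of 45141 probe sets for each of 17 arrays, were made by the authors with Partek and RMA per the submitters' processing notes, with no versions given. The series' design text gives a sort purity above 99%. Values ran from 0.492 to 12.9, array medians from 4.70 to 4.75, and the number of arrays limits the precision.

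Groups came from the sample titles. Of the probe sets 104 were controls, 28898 had 1 gene symbol in the platform annotation (28689 updated by gene identifier) and 551 had several. The probe set with the highest mean was kept per gene, giving 17097 genes, with no filter. A mean per group was fitted over all 5 groups in limma 3.58.1 (R 4.3.3) with eBayes, with 7 comparisons. Intervals are 95%. Figures were drawn with matplotlib 3.10.9. On simulated data with 200 genes shifted by 2 log2 units, each of the 7 comparisons recovered 96.5% to 99% of them and made between 0 and 4 false calls. The simulation gave a gene the same spread in every group, and its shift lay well above the 2-fold limit. It therefore does not tell how often differences near that limit, or genes of unequal spread, are called.

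All members were named, the genes of both further lists were counted and those called in any comparison could be named, and 3 like genes per member were listed. Members and lists were chosen with earlier results of these data known. Tnfsf18, Tnfsf15, Traf3 and Chuk were not analysed here. Alternatives were the summary of probe sets, a filter, centring, quantile normalization, array weights, a replicate block, only the groups compared, no fold minimum and leaving out each array.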

Additional observations from a re-analysis of the deposited data

Results flagged for a closer look

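The difference between gland and spleen differed between CD4 T cells and B cells for 5 members, by the test of that difference itself. The log2 values, CD4 T cell difference minus B cell difference, were 2.58 for Tnfrsf4, 1.75 for Tnfrsf9, 1.72 for Tnfrsf18, 1.64 for Tnfsf9 and 1.34 for Tnfsf8. For Tnfrsf18 the differences had opposite signs, 0.97 in CD4 T cells and -0.76 in B cells, and neither was called on its own. In 18 groups of 4 arrays (2 per member), no array stood out by Dixon's test, which chance would do in about 1 of 20. Groups of 3 arrays, among them the epithelial cells, were not put to this test.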

How the results depend on the processing

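The number of members called stayed the same in 5 comparisons between lymphocyte groups when epithelial replicate 1 was left out, an alternative chosen after seeing the data (4 in CD4 T cells between tissues, 0 in B cells, 5 for the interaction, 6 and 4 for CD4 T against B cells in gland and spleen). Leaving out 1 array at a time gave 4 to 4, 0 to 0, 4 to 5, 6 to 6 and 4 to 4 members in these comparisons, 2 to 3 for epithelial against B cells and 6 to 7 for epithelial against CD4 T cells. With no fold minimum, epithelial against B cells called 4 members, against 2. The counts over all genes were then 3995 against 1191 for CD4 T cells between tissues, 3019 against 714 for B cells, 1731 against 869 for the interaction, 5196 against 1659 and 3843 against 1565 for CD4 T against B cells in gland and spleen, 10897 against 4546 for epithelial against B cells and 9955 against 4330 for epithelial against CD4 T cells. Same-numbered arrays deviated from their group means with correlations from -0.397 to 0.215. With so few arrays per group these cannot tell whether same-numbered arrays were paired, which the labels do not state. With the replicate number as a block the 7 counts were 4, 0, 5, 6, 4, 2 and 6, unchanged.

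Centring each array on its median moved every gene by -0.16 in CD4 T cells between tissues, -0.13 in the interaction, -0.12 in CD4 T against B cells of the gland, -0.37 in epithelial against B cells and -0.26 in epithelial against CD4 T cells. Some differences that were not called over all arrays changed sign. Of these, Cd27 in epithelial against B cells was called without epithelial replicate 1. Cd27 in CD4 T cells between tissues went to -0.15 when centred, -0.042 with quantile normalization and -0.0042 with array weights, and ran from -0.031 to 0.032 leaving out 1 array. Tnfsf4 in B cells was -0.019 when centred and -0.059 with quantile normalization, and ran from -0.054 to 0.065. Tnfsf9 in B cells ran from -0.062 to 0.32 and Tnfsf8 from -0.099 to 0.026. The interaction of Tnfrsf8 was -0.12 when centred and -0.0017 with quantile normalization, and ran from -0.047 to 0.087, and its difference between gland CD4 T and B cells was -0.058 when centred. Tnfrsf9 in epithelial against B cells was -0.073 with the mean of probe sets, -0.33 when centred, -0.12 with quantile normalization and -0.11 with array weights, and ran from -0.49 to 0.34, and Cd27 there ran from -1.51 to 0.46. The cause of these shifts was not tested. In epithelial against CD4 T cells, Tnfsf4 was called at -1.15 when centred, -1.01 with quantile normalization and -1.02 without replicate 4 of gland CD4 T cells, and Cd70 at -1.01 when centred. A filter on low values kept 7 of the 9 members (not Cd70 and Tnfrsf8).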
